A study of Mus musculus with 6 samples.

Results

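The 9 genes described here, Rgs1, Rgs2, Rgs3, Rgs10, Rgs12, Rgs14, Rgs16, Rgs18 and Rgs19, encode regulators of G-protein signaling (RGS). They were taken by gene symbol from a table of 54532 genes, and all 9 passed a filter of at least 1 TPM (transcript level per gene length, brought to a total common to all libraries) in at least 2 of 6 libraries. Rgs16 passed it only through the LPS and Met + LPS libraries. Rgs3 passed it only with the untreated libraries counted, as LPS replicate B was the only other library at 1 TPM. The data are RNA-seq libraries of primary bone-marrow-derived macrophages (BMDMs) of C57BL/6 wildtype mice, in 3 groups of 2 replicates, A and B. BMDMs were left untreated, were stimulated with LPS (100 ng/ml) for 2 h, or were given metformin (5 mM) for 6 h and then LPS (100 ng/ml) for 2 h (Met + LPS). LPS is a glycolipid of bacterial envelopes that macrophages sense through the receptor TLR4, and metformin is a drug against type 2 diabetes. No group with metformin alone was analysed here, so that an effect of metformin by itself and one on the LPS response cannot be told apart. Nothing in the labels says that the replicates came from separate mice, and p-values then measure only the spread between these libraries.

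G-protein-coupled receptors signal through G proteins, which are active while their alpha subunit holds GTP. RGS proteins bind the active alpha subunit and speed its hydrolysis of GTP, which ends the signal. In leukocytes they are best known as brakes on chemokine receptors, and thereby on migration. Rgs1, Rgs2, Rgs3, Rgs16 and Rgs18 belong to the R4 subfamily of mostly small proteins that act on the Gi and Gq classes. Rgs10, Rgs12 and Rgs14 belong to the R12 subfamily and prefer the Gi class, and Rgs19 belongs to the RZ subfamily.

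The 250 bases before the RefSeq start site of Rgs2 and of Rgs16 are shown because these members fell and rose most with LPS. Both are on chromosome 1 of GRCm38, at chr1:144004150-144004399 (minus strand) for Rgs2 and chr1:153740103-153740352 (plus strand) for Rgs16, and were taken from RefSeq (GRCm38.p6). They are written 5′ to 3′ in the direction of transcription, and capitals mark the letters CCAAT and TGACG, read on either strand.
Rgs2: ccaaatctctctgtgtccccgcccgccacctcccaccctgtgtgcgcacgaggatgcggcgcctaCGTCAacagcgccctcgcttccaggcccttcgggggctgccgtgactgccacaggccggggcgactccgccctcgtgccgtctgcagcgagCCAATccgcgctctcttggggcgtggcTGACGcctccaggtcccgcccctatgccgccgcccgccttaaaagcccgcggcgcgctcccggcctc
Rgs16: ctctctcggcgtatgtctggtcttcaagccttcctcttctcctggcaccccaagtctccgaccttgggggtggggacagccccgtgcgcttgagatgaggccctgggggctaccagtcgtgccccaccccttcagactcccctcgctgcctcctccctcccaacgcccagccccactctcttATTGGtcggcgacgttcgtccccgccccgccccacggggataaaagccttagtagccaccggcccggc
CCAAT is the box read by the factor NF-Y, and TGACG the core of the site of CREB and ATF factors. The Rgs2 sequence holds CCAAT once, beginning at position -94 from the start site, and TGACG at positions -185 and -67. The Rgs16 sequence holds CCAAT at position -68 and no TGACG. Positions count from the RefSeq start site. By the gene coordinates given further below, both genes begin within the printed stretches, so that positions from those starts would differ. Of 32851 mouse promoter windows of 300 bases, from 250 before to 50 after the start site, 37.4% held CCAAT and 20.8% held TGACG on either strand. A loose form of the kappaB site, GGG and CC with any 5 letters between them, can overlap the other motifs. It was in 50.8% of the windows. Of the 6 members with a window, 5 held it in at least 1, Rgs2 and Rgs16 among them. These 6 had 10 windows together, so that the share of members cannot be set against the share of windows. A match describes letters and not a binding site.

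The libraries held 25457016 to 30762753 reads on genes, recovered from the TPM values. The summed level of 7 macrophage markers was 43710 to 45600 TPM in untreated, 34526 to 35264 TPM in LPS and 28763 to 28884 TPM in Met + LPS libraries, and all 7 were at 1 TPM or more. The corresponding ranges were 27.8 to 31.1, 24.8 to 26.4 and 41.1 to 42.7 TPM for 7 neutrophil markers, of which 4 reached 1 TPM, and 20.6 to 21.1, 8.00 to 8.18 and 23.2 to 24.4 TPM for 4 mast cell and basophil markers, of which 2, Mcpt4 and Fcer1a, were at 0 in all libraries. They were 2.63 to 3.18, 1.47 to 1.56 and 0.766 to 0.792 TPM for 5 B cell markers, of which 1 reached 1 TPM. The 4 megakaryocyte and platelet markers summed to at most 3.59 TPM and the 4 dendritic cell markers to at most 2.80 TPM. The 5 T cell, 4 fibroblast and 3 erythroid markers summed to less than 1 TPM in every library, and Cd3g and Hbb-bs were at 0. The part of these levels in the results below was not tested. In such bulk samples, fewer cells of a type and less RNA per cell cannot be told apart.

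Rgs10 was the most abundant member per length of transcript in all 3 groups, and the order behind it changed with LPS. In untreated BMDMs the mean TPM fell in the order Rgs10, Rgs2, Rgs19, Rgs18, Rgs1, Rgs14, Rgs12, Rgs3 and Rgs16, from 307 to 0.669 TPM, and no 2 neighbours overlapped between replicates. With LPS, Rgs1 moved from the fifth to the second place, Rgs2 from the second to the third, and Rgs16 from the ninth to the sixth. Rgs2 and Rgs19, which followed each other, overlapped in the LPS libraries and again in the Met + LPS libraries. Levels between genes depend on the lengths used. All bases of the Rgs1 gene (6947) are annotated as exon in some transcript, so that reads from its introns are counted too. With the transcript length that the table lists (3841 bases), Rgs1 had rank 4 of 9 in untreated BMDMs and still rank 2 in the other groups. With the listed lengths, Rgs2 had rank 4 behind Rgs19, and Rgs16 rank 7 behind Rgs14, in the LPS libraries.

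**Figure D1:**
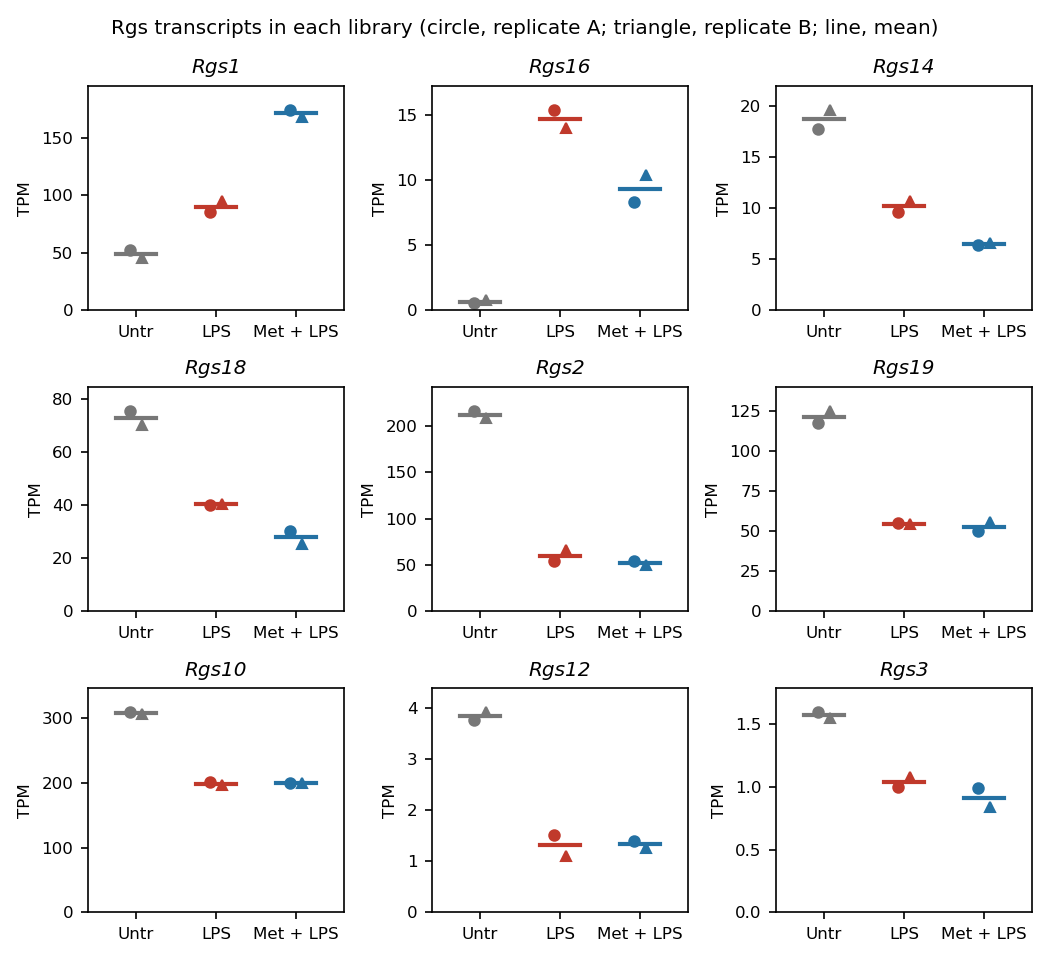
TPM (y axis, linear from 0, its own scale in each panel) of the 9 members in untreated (Untr), LPS and Met + LPS libraries, with replicate A as circle, replicate B as triangle and the mean of 2 as line. Rgs1 steps up with LPS and again with Met + LPS, from 49.1 to 90.2 and 171 TPM, Rgs16 rises from 0.669 to 14.7 TPM and is at 9.35 TPM with Met + LPS, and the other 7 are lower with LPS than without.

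The comparison of LPS with untreated BMDMs asks how the acute inflammatory response changes these genes. Differences are given as log2 fold changes of TPM + 1, a scale on which changes of genes near 1 TPM come out too small, with the standard error (SE) of limma and adjusted p-values over 12755 genes, and a gene passed with an adjusted p under 0.01. By this test 2 members rose and 6 fell, and Rgs3 did not pass. Rgs16, 1 of the 2, passed the filter only through the groups where it was high, and Rgs3 only through the untreated group, where it was high. With no filter the same members passed, here and in Met + LPS vs. untreated. Of all genes tested, 76.3% passed, 16.2% higher and 60.1% lower, so that a count of 8 of 9 is not particular to the members. The median over the members was -0.82, against -0.48 over all tested genes. Because that median lies below 0, values with the libraries rescaled by their median ratio are given as well. With rescaling 58.3% of all genes passed, 30.6% higher and 27.6% lower, and of the members 2 rose and 4 fell.

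Rgs16 and Rgs1 rose with LPS. Rgs16, a regulator of chemokine receptor signaling that is induced in activated lymphocytes, was near the lower limit of detection in untreated BMDMs, at 0.562 TPM in replicate A and 0.776 TPM in replicate B, which are 10 and 13 reads. The LPS libraries held 15.4 and 14.0 TPM, or 274 and 239 reads. The mean TPM was 22.0-fold higher with LPS, and the log2 fold change was 3.23 and 3.52 after rescaling. Because of how Rgs16 passed the filter, its test against untreated BMDMs is given from the limma fit with no filter (adjusted p = 6.03e-05). Rgs16 was the only member past the log2 fold change of 2 that the study required for LPS vs. untreated, as were 6.08% of all genes. The study took fold changes, for this and its other cut-off, from DESeq2 on counts and not from TPM + 1. Of its 2339 exon bases, 236 (10.1%) are shared with the antisense gene Gm28513, which was at most at 0.215 TPM. Rgs1, which restrains the migration of B and T cells toward chemokines, was at 52.6 and 45.5 TPM in untreated and at 85.2 and 95.1 TPM in LPS libraries. The LPS libraries were both above the untreated ones, with a log2 fold change of 0.87 (SE 0.08, adjusted p = 6.26e-05) and 1.38 after rescaling.

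Rgs2 fell most. It encodes an RGS protein with a preference for the Gq class, which signals through phospholipase C. It was at 216 and 208 TPM in untreated and at 53.8 and 65.8 TPM in LPS libraries. The LPS mean was 28.2% of the untreated mean, and the log2 fold change was -1.82 (SE 0.09, adjusted p = 4.04e-06). Only 3.66% of the tested genes had a log2 fold change as low as this or lower. Rgs19, also called GAIP, was at 117 and 125 TPM without and at 55.2 and 54.3 TPM with LPS. Both LPS libraries were below both untreated ones, with a log2 fold change of -1.13 (SE 0.06, adjusted p = 5.73e-06). After rescaling, Rgs2 was at -1.29 and Rgs19 at -0.61, and both still passed.

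The 3 members of the R12 subfamily were all lower with LPS. Rgs10, an RGS protein studied in microglia as a brake on inflammation, was at 309 and 305 TPM in untreated and at 200.2 and 196 TPM in LPS libraries, a log2 fold change of -0.63 (SE 0.03, adjusted p = 3.09e-06). After rescaling its value was -0.10 (adjusted p = 0.0178) and did not pass. Rgs14, which also binds the small GTPases Ras and Rap, was at 17.8 and 19.6 TPM without and at 9.64 and 10.7 TPM with LPS, a log2 fold change of -0.82 (SE 0.08, adjusted p = 6.48e-05). Rgs12, a large scaffold protein with further binding domains, was low in all libraries, at 3.77 and 3.91 TPM without and 1.52 and 1.10 TPM with LPS. The LPS libraries held 98 and 68 reads of Rgs12 against 243 and 238 in the untreated ones, and the log2 fold change was -1.07 (SE 0.13, adjusted p = 2.28e-04). After rescaling, Rgs14 was at -0.33 and Rgs12 at -0.70, and both still passed. Of the Rgs12 exon bases, 467 (5.50%) are shared with the antisense gene Gm43791, which was at 0 in all libraries.

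Rgs18 and Rgs3 are the other members of the R4 subfamily. Rgs18, which is expressed in platelets and other blood cells, was at 75.4 and 70.2 TPM in untreated and at 40.0 and 40.5 TPM in LPS libraries. Its log2 fold change was -0.84 (SE 0.08, adjusted p = 7.46e-05), and after rescaling it was -0.32 (adjusted p = 0.0113) and did not pass. Rgs3 was at 1.60 and 1.55 TPM without and at 0.997 and 1.08 TPM with LPS, on 82 to 131 reads per library. Its log2 fold change of -0.34 did not pass in the limma fit with no filter (adjusted p = 0.0452), although its libraries did not overlap. Libraries of untreated and LPS-treated BMDMs did not overlap for any of the 9 members, nor for 91.6% of all tested genes. With limma voom on the recovered reads, the log2 fold change of Rgs3 was -0.58, and without a mean-variance trend it was the same as before. Both fits put Rgs3 past the threshold. Both used the filter that Rgs3 passed only through the untreated libraries, where it was high, so that no call is drawn from them. Rescaling left Rgs3 at -0.04 (adjusted p = 0.795).

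**Figure D2:**
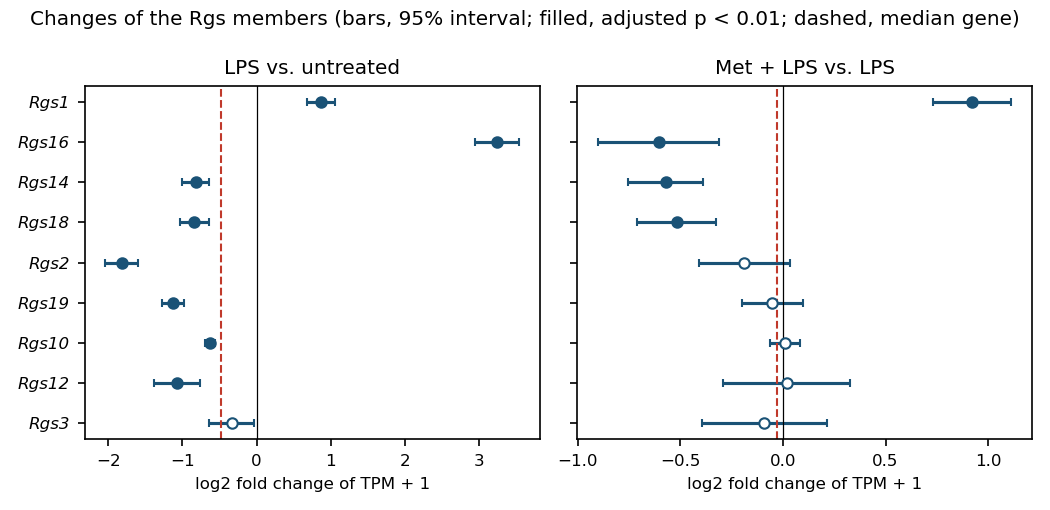
Log2 fold changes of TPM + 1 (x axis) of the 9 members with 95% intervals of limma, for LPS vs. untreated on the left and Met + LPS vs. LPS on the right, filled where the adjusted p is under 0.01, with the median of all tested genes dashed (-0.48 and -0.03). With LPS, Rgs16 (3.23) and Rgs1 (0.87) lie right of 0 and the other 7 left of it, and with Met + LPS vs. LPS only Rgs1 (0.92) of the 4 filled members lies right of 0.

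The comparison of Met + LPS with LPS asks how BMDMs given metformin before LPS differ from those given LPS only. Rgs1 rose and Rgs16, Rgs14 and Rgs18 fell, and 5 members did not pass. Of all tested genes 32.6% passed, 14.5% higher and 18.0% lower. The median over the members was -0.09, against -0.03 over all tested genes. Rescaling, with which 33.1% of all genes passed, changed none of the 9 calls here.

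Rgs1 was at 174 and 169 TPM with Met + LPS, above both LPS libraries (85.2 and 95.1 TPM). The means differed 1.90-fold, and the log2 fold change was 0.92 (SE 0.08, adjusted p = 2.11e-04). Rgs1 was the only member past the log2 fold change of 0.7 that the study required for this comparison, as were 8.28% of all genes, and 97.2% of the tested genes had a lower log2 fold change. In each of 14 alternative analyses Rgs1 passed, with log2 fold changes of 0.84 or more. Rgs1 thus rose in both comparisons, which share the LPS libraries. From untreated to Met + LPS it rose 3.49-fold, a log2 fold change of 1.79 (SE 0.08, adjusted p = 2.41e-06).

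Rgs16 had risen with LPS and was lower with Met + LPS, at 8.31 and 10.4 TPM against 15.4 and 14.0 TPM. The 2 groups did not overlap, and the log2 fold change was -0.61 (SE 0.12, adjusted p = 0.00723). The call was the least stable of the 4. It was lost in 9 of 14 alternatives, among them the fits without either untreated, either LPS or the Met + LPS replicate A library (adjusted p from 0.0194 to 0.0485), and voom gave an adjusted p of 1.11e-04. Compared with untreated BMDMs, Rgs16 with Met + LPS was still 14.0-fold higher (log2 fold change 2.63, adjusted p = 1.08e-04 in the limma fit with no filter).

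Rgs14 and Rgs18 had fallen with LPS and were lower again with Met + LPS. Rgs14 was at 6.43 and 6.58 TPM against 9.64 and 10.7 TPM with LPS, a log2 fold change of -0.57 (SE 0.08, adjusted p = 0.00123). Without Met + LPS replicate A it narrowly did not pass (-0.56, adjusted p = 0.0106), and it passed in the other 13 alternatives. Rgs18 was at 30.2 and 25.5 TPM against 40.0 and 40.5 TPM, a log2 fold change of -0.52 (SE 0.08, adjusted p = 0.00233). It was lost in 7 of 14 alternatives, among them the fits without either untreated or either LPS library (adjusted p from 0.0114 to 0.0180). In untreated BMDMs both had been higher still, and the Met + LPS means were 34.8% of the untreated mean for Rgs14 and 38.3% for Rgs18.

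The other 5 members did not pass, and their intervals bound the changes that these libraries allow. Rgs10 was at 199 and 200.1 TPM with Met + LPS, both between the LPS libraries (200.2 and 196 TPM), with a log2 fold change of 0.01 and a 95% interval from -0.06 to 0.08 (adjusted p = 0.816). Rgs19, at 49.8 and 55.9 TPM, had a log2 fold change of -0.05 with an interval from -0.20 to 0.10 (adjusted p = 0.522). Rgs2, at 54.1 and 50.2 TPM, had one of -0.19 with an interval from -0.41 to 0.03 (adjusted p = 0.139). Its Met + LPS replicate A lay just above, and replicate B below, the lower of its LPS libraries. Rgs12, at 1.40 and 1.25 TPM, had a log2 fold change of 0.02 (-0.29 to 0.33, adjusted p = 0.927), and Rgs3, at 0.992 and 0.837 TPM, one of -0.09 (-0.40 to 0.21, adjusted p = 0.590). Libraries of the 2 groups did not overlap for 5 members, the 4 that passed and Rgs3, and for 73.8% of all tested genes.

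In Met + LPS vs. untreated, 2 members rose and 6 fell, as in LPS vs. untreated, while 75.1% of all tested genes passed, 16.3% higher and 58.8% lower. Rescaled, 63.1% of all genes passed, 33.4% higher and 29.7% lower, and 2 members rose and 5 fell, with Rgs10 at -0.08 (adjusted p = 0.0439). Rgs2 had a log2 fold change of -2.00 (SE 0.09, adjusted p = 2.63e-06), Rgs14 one of -1.39 and Rgs18 one of -1.36. Rgs3, at -0.43, did not pass in the limma fit with no filter (adjusted p = 0.0206).

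The composition of the RGS transcripts differed between the libraries of the 3 groups. The summed level of 21 numbered Rgs genes was 796 and 783 TPM in untreated, 463 and 480 TPM in LPS and 526 and 520 TPM in Met + LPS libraries. These sums were not rescaled, and the median log2 fold change of all tested genes was itself -0.48 in LPS vs. untreated. Rgs1 and Rgs2 are followed here as shares of the summed level. Rgs1 made up 6.61% and 5.82% of the summed level without LPS, 18.4% and 19.8% with LPS and 33.2% and 32.4% with Met + LPS. Rgs2 made up 27.1% and 26.6%, then 11.6% and 13.7%, then 10.3% and 9.66%. The ratio of Rgs2 to Rgs1 in TPM was 4.10 and 4.57 in untreated, 0.632 and 0.692 in LPS and 0.310 and 0.298 in Met + LPS libraries, so that the more abundant of the 2 was Rgs2 before LPS and Rgs1 after it. The share of Rgs10 stayed between 37.9% and 43.2% in all libraries. These shares depend on the gene lengths used, as the ranks above do. They are a description and were not tested.

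**Figure D3:**
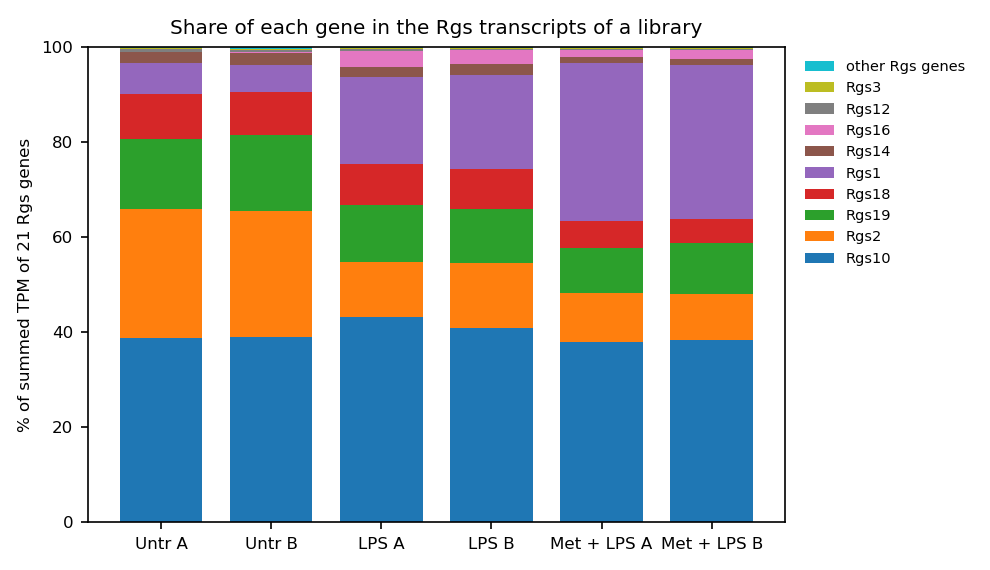
Share of each gene (y axis, percent) in the summed TPM of 21 numbered Rgs genes, in each of the 6 libraries (x axis). The band of Rgs1 widens from 6.61% and 5.82% in untreated to 33.2% and 32.4% in Met + LPS libraries, that of Rgs2 narrows from 27.1% and 26.6% to 10.3% and 9.66%, and that of Rgs10 keeps between 37.9% and 43.2%.

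Of the 12 other numbered Rgs genes, 10 had at most 1 read in any library. For 6 of them (Rgs4, Rgs5, Rgs6, Rgs7, Rgs13 and Rgs21) no read was found in any library, which allows a level of up to 0.253 TPM, the level of 3 reads for the shortest of them. Such limits cover counting error only. Rgs8, Rgs17, Rgs20 and Rgs22 had 1 read in at least 1 library. Only Rgs11, a member of the R7 subfamily that works in a complex with the G beta subunit Gnb5, passed the filter. It was at 2.25 and 2.95 TPM in untreated, 0.562 and 0.293 TPM in LPS and 0.220 and 0.430 TPM in Met + LPS libraries, on 7 to 89 reads. It reached 1 TPM only in the untreated libraries and so passed the filter only through the group where it was high, and its log2 fold change with LPS (-1.33) is given without a test. Met + LPS vs. LPS gave -0.11 (adjusted p = 0.665). Rgs9, of the same subfamily, went untested below the filter and had 6 and 3 reads in untreated, 36 and 28 in LPS and 27 and 26 in Met + LPS libraries.

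Rgs2, Rgs1 and Rgs18 are neighbours on chromosome 1, within the run Rgs2, Rgs13, Rgs1, Rgs21, Rgs18 on the minus strand. In GRCm38, Rgs2 lies at 143999338 to 144004161, Rgs1 at 144242296 to 144249242 and Rgs18 at 144752683 to 144775435. In LPS vs. untreated Rgs1 rose while Rgs2 and Rgs18 fell, and in Met + LPS vs. LPS Rgs1 rose, Rgs18 fell and Rgs2 did not pass. The fall of Rgs18 did not pass after rescaling in the former comparison and was lost in 7 of 14 alternatives in the latter. Rgs13 and Rgs21, which lie within the run, were at 0 in all libraries. Rgs16 is on the same chromosome at 153740349 to 153745468, on the plus strand. The other members lie on chromosomes 2 (Rgs19), 4 (Rgs3), 5 (Rgs12), 7 (Rgs10) and 13 (Rgs14).

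The genes with which RGS proteins work, from the G proteins to their effectors, were counted over lists that held 51 tested genes of 69 in the table. In LPS vs. untreated 9 were higher and 33 lower, with a median log2 fold change of -0.55 against -0.48 for all tested genes, and after rescaling 16 were higher and 16 lower. Of all tested genes 16.2% were higher and 60.1% lower, and after rescaling 30.6% and 27.6%, so that the counts are near those over all genes. In Met + LPS vs. LPS 9 were higher and 13 lower, with a median of -0.10 against -0.03, while 14.5% of all tested genes were higher and 18.0% lower. With 1 library left out, 9 to 13 of the 51 passed in this comparison in place of 22.

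Among the alpha subunits, the substrates of RGS proteins, Gnai2 was the most abundant of the Gi class, at 836 and 837 TPM in untreated, 618 and 619 TPM in LPS and 502 and 514 TPM in Met + LPS libraries. It fell with Met + LPS vs. LPS (log2 fold change -0.28, adjusted p = 3.92e-04). In LPS vs. untreated it was at -0.44 (adjusted p = 1.35e-05), and rescaling turned this to 0.09 (adjusted p = 0.0264). Gnai3, the other tested gene of this class, rose with LPS, from 188 and 189 TPM to 257 and 250 TPM (0.43, adjusted p = 2.42e-05, and 0.95 after rescaling). None of the 3 tested genes of the Gq class passed in Met + LPS vs. LPS. With LPS, Gna11 fell (-1.21) and Gnaq rose (0.23), while Gna15 was at -0.18 (adjusted p = 0.268). Of the remaining classes, Gna13 rose in both comparisons (0.94 and 0.28) and Gna12 fell in both (-1.35 and -0.15), the latter not passing after rescaling (adjusted p = 0.0113). For Gs, Gnas (-0.55) and Gnal (-0.69) passed as lower with LPS but not after rescaling. Gnas shares 22.0% of its exon bases with other genes, and its level is uncertain. Among other G-protein genes named here, Gng2 (20.4%), Gpsm3 (16.9%) and Gna12 (13.3%) share the largest parts of their exon bases with another gene. Smaller parts are shared by Gnb5 (7.96%), Gnal (7.63%), Adcy2 (4.49%), Gng12 (2.64%), Gna13 (2.35%) and Plcb3 (0.316%).

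Gnb5, the partner of the R7 subfamily, fell with LPS (-1.13). Among the beta and gamma subunits, Gnb4 rose with LPS (1.48) and fell with Met + LPS vs. LPS (-0.73), and Gng4 rose with LPS (1.55) and was at -0.39 in Met + LPS vs. LPS (adjusted p = 0.0172). Gnb1 and Gng12, which had the highest means over all 6 libraries among the beta and the gamma subunits, did not pass in either comparison (0.10 and -0.08 with LPS), though rescaling put both past the threshold as higher with LPS (0.63 and 0.44). Gng2, which was above Gng12 in untreated BMDMs at 128 and 122 TPM, fell with LPS (-0.995, adjusted p = 1.18e-06, and -0.47 after rescaling). Gng11 rose with Met + LPS vs. LPS (0.53). Grk3, a kinase that desensitizes receptors, rose with LPS (1.70) and fell with Met + LPS vs. LPS (-0.39), while its more abundant relative Grk2 was at -0.61 with LPS (adjusted p = 9.1e-06), which did not pass after rescaling.

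All 4 tested genes on the list of effectors of the beta-gamma complex were lower with Met + LPS than with LPS, as were 18.0% of all tested genes. They were Pik3cg, the catalytic subunit of phosphoinositide 3-kinase gamma (-0.54), its regulatory subunits Pik3r5 (-0.38) and Pik3r6 (-0.64), and the Rac activator Prex1 (-0.49). All but Prex1 are thus parts of the same kinase. Adenylyl cyclases and phospholipase C beta genes, which stand on lists of their own, were not all lower. With LPS alone, Pik3r5 (1.22) and Pik3r6 (0.86) had risen. Pik3cg (-1.17) had fallen, and Prex1 was at -0.23, which rescaling turned to 0.29. Among adenylyl cyclases, which make cyclic AMP, the abundant Adcy7 (-0.91) and Adcy9 (-1.25) fell with LPS, and Adcy2 rose with Met + LPS vs. LPS (0.77). Of phospholipase C beta, an effector of the Gq class, Plcb2 fell with LPS (-1.01) and Plcb3 rose (0.40). In Met + LPS vs. LPS, Plcb2 (0.29) and Plcb4 (0.45) rose and Plcb3 fell (-0.23). All 5 tested exchange and dissociation factors of alpha subunits were lower with LPS (3 after rescaling), as were 60.1% of all tested genes (27.6% after rescaling), among them Gpsm3 (-0.92) and Ric8b (-1.32), and none passed in Met + LPS vs. LPS. Of genes with an RGS-like domain, Akap10, an anchor of protein kinase A, had the lowest log2 fold change with LPS (-2.42) and rose with Met + LPS vs. LPS (0.67), and the abundant Arhgef1, an exchange factor driven by the alpha subunits of the Gna12 class, was at -0.50 with LPS and at 0.02 after rescaling.

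**Figure D4:**
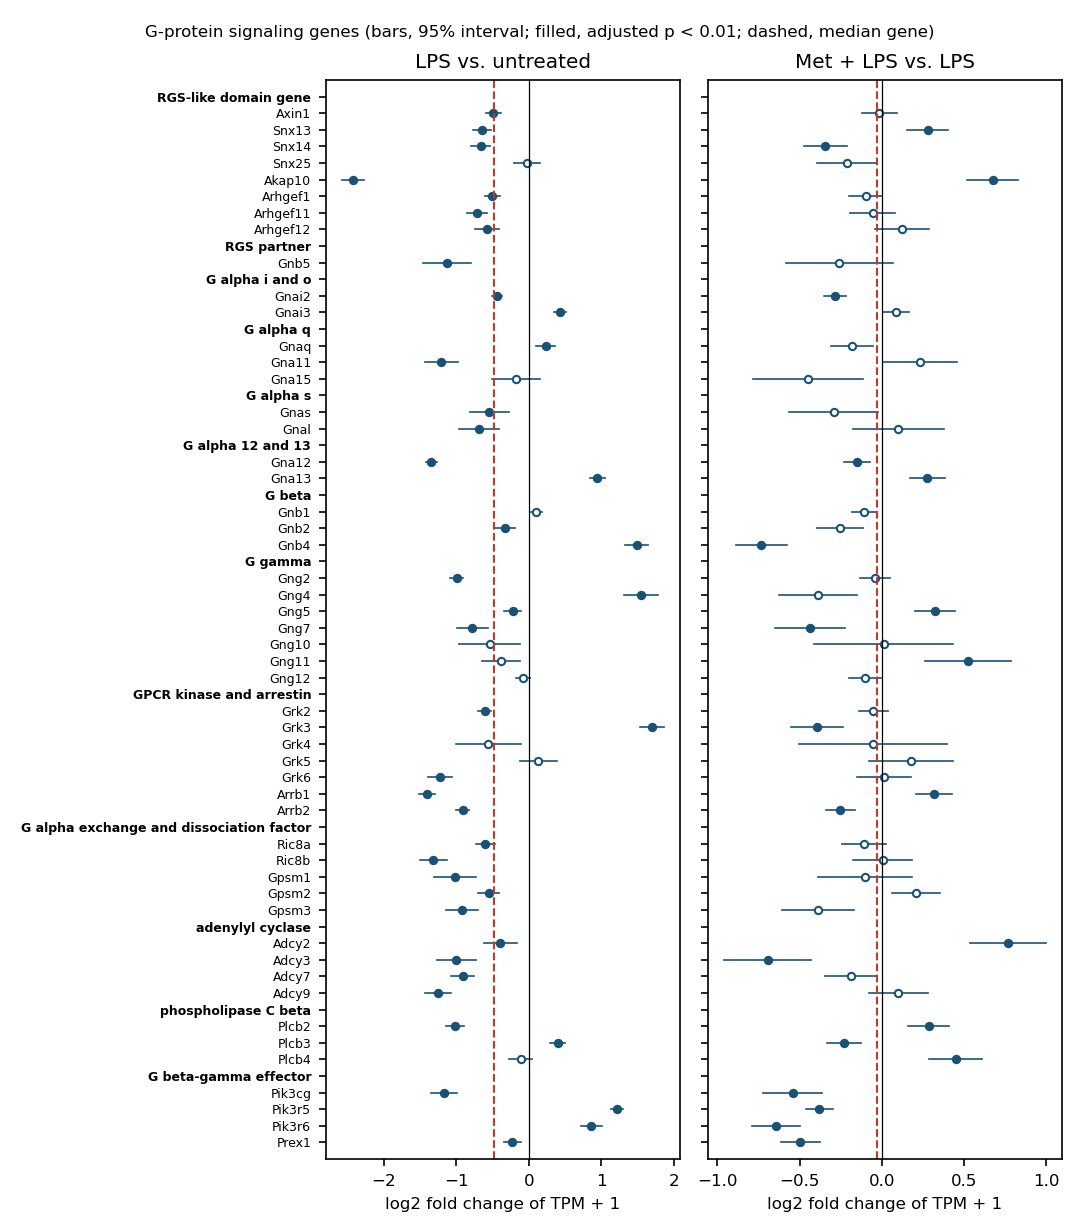
Log2 fold changes of TPM + 1 (x axis) with 95% intervals of the 51 tested genes of the G-protein lists, grouped by list, for LPS vs. untreated on the left and Met + LPS vs. LPS on the right, filled where the adjusted p is under 0.01, with the median of all tested genes dashed (-0.48 and -0.03). With LPS 9 genes are filled on the right of 0 and 33 on the left, and the 4 genes of the beta-gamma effector list are all filled on the left for Met + LPS vs. LPS.

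The genes whose pattern over the 6 libraries was nearest to that of a member were sought by the root mean square difference of log2(TPM + 1), centred on each gene's own mean. For Rgs1 the nearest of the 12755 tested genes was 4932442E05Rik (0.0748), followed by Hbegf (0.0843), a growth factor of the EGF family. For Rgs16 they were Fas (0.0622), the death receptor, and Rhou (0.0864). For Rgs2 they were Bcl9l (0.0546) and Traf3ip3 (0.0606), and for Rgs14 they were Klhl18 (0.0360) and Cyb561d2 (0.0463). The nearest genes were Hlcs and Ganc for Rgs18, Ulk2 and Preb for Rgs12, 2210011C24Rik and Thap7 for Rgs19, Dynll2 and Pigu for Rgs10, and Cog2 and Ogdh for Rgs3, with differences from 0.0150 to 0.0572. These likenesses carry no test, and members with small changes have many near neighbours.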

How the data were processed

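Libraries were made from poly-A RNA of BMDMs grown in L929-conditioned medium. The authors aligned single-end reads to GRCm38 with STAR 2.6.1d, counted them per gene with featureCounts (Subread 1.6.3), and deposited 1 TPM value per library for each of 54532 genes. How counts became TPM is not given in the sources used here. The study's methods say that cells were seeded in duplicate.

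TPM values multiplied by the exon length of their gene (GENCODE annotation of GRCm38, 54495 genes matched by identifier) and divided by a step common to the library gave reads. Of the values under 200 reads, 97.5% to 97.9% were whole within 0.02. Reads carry no molecular identifiers.

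A gene was tested where 2 or more of the 6 libraries reached 1 TPM, which left 12755 genes. All 6 libraries entered 1 linear model of log2(TPM + 1) without covariates (limma 3.58.1, R 4.3.3), which left 3 residual degrees of freedom, and variances were moderated by eBayes with its trend option. P-values were adjusted by the method of Benjamini and Hochberg over these genes. The scripts were tested on simulated data. Tables came from pandas 2.3.3 and numpy 2.4.6 and plots from matplotlib 3.10.9, under Python 3.11.15. The test was repeated without a filter, with a minimum of 5 TPM, with 0.1 as pseudocount, with median-ratio rescaling, with the replicate letter as a block, without a trend, by voom on reads (12750 genes), on the compared groups only, and without each library in turn. The adjusted p cut-off of 0.05 and the study's log2 fold-change cut-offs were applied to counts of genes, with a cut-off of 2 also used for Met + LPS vs. untreated.

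The members and all lists were chosen with earlier results of these data known. Named are all 9 members, every other numbered Rgs gene past the filter, in each G-protein list the most abundant gene and that with the largest change in each of LPS vs. untreated and Met + LPS vs. LPS, and the 2 genes nearest in pattern to each member. Rgs9, the Rgs genes at or near 0, Pik3cg, Prex1, Gnai3 and Gng2 are named outside this rule, after their values were seen. Promoter sequences came from RefSeq (GRCm38.p6), which had windows for 6 of the 9 members.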

Additional observations from a re-analysis of the deposited data

How the results depend on the processing

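With the study's log2 fold-change cut-offs, 1 member passed in LPS vs. untreated and 1 in Met + LPS vs. LPS, in place of 8 and 4. The study set none for Met + LPS vs. untreated, where a cut-off of 2 left 2 members (Rgs16 and Rgs2) in place of 8. Of all 12755 tested genes, 776 passed with these cut-offs in LPS vs. untreated, 1056 in Met + LPS vs. LPS and 682 in Met + LPS vs. untreated. In Met + LPS vs. LPS, 2 members passed with no filter, with no trend and with only the compared groups fitted, and 2 to 4 passed with 1 library left out. Rgs1 was among them each time, with Rgs14 or, without Met + LPS replicate A, with Rgs18. The cause was not tested, beyond that no filter tests more genes and the other fits use fewer samples or another prior. All genes passing there numbered 4156, and 2561 to 2759 with 1 library left out, 2662 with the compared groups only and 2792 with no filter. The count of G-protein genes passing there, 22, became 12 with no filter, 14 with no trend, 13 with the compared groups only and 9 to 13 with 1 library left out, and with the fold-change cut-offs it was 1 in LPS vs. untreated (42 without), 2 in Met + LPS vs. LPS and 0 in Met + LPS vs. untreated (42 without). Values that changed sign had not passed. In Met + LPS vs. LPS with 1 library left out, Rgs10 lay between -0.0038 (without LPS replicate B) and 0.023, Rgs12 between -0.11 (without LPS replicate B, -0.03 without Met + LPS replicate A) and 0.15, and Rgs19 between -0.13 and 0.029 (without Met + LPS replicate A). In LPS vs. untreated, 120 of the members' values under alternatives kept direction and side of the threshold. Of the others, 2 lost the call (Rgs10 and Rgs18 with rescaling) and 2 gained it (Rgs3, with the filter that it passed only through the untreated libraries). In Met + LPS vs. LPS 103 kept direction and side of the threshold and 17 lost the call. Rgs3 and Rgs12 have no value at a minimum of 5 TPM.

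Libraries with the same letter did not deviate together (correlations over genes of their deviations from the group means of -0.0037, 0.028 and 0.0062), so the letters are not shown to pair them. With the replicate letter as a block, 8 members passed in LPS vs. untreated, 4 in Met + LPS vs. LPS and 8 in Met + LPS vs. untreated. Depth limits Rgs16 in untreated BMDMs (10 and 13 reads), Rgs3 and Rgs12.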
